A study of Mus musculus with 8 samples.

Results

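F-box proteins are the interchangeable substrate receptors of the SCF ubiquitin ligases. Their genes were taken from the count table by symbol, as every line whose symbol begins with Fbxl, Fbxo or Fbxw followed by a digit. This gave 78 genes of 45706, of which 77 are protein coding and 1, Fbxl12os, is an antisense RNA. There were 19 Fbxl, 37 Fbxo and 22 Fbxw genes, and Fbxw14 stood on 2 lines with different identifiers. A filter on low counts left 60 of the 78 for testing.

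In an SCF ligase the F-box motif of the receptor docks on the adaptor Skp1, which sits on the scaffold Cul1 with the RING protein Rbx1, and the ligase passes ubiquitin to whatever the receptor holds. The letter in the gene name gives the part that binds the substrate, leucine-rich repeats in Fbxl, WD40 repeats in Fbxw and other or no known domains in Fbxo. In muscle the family is best known for Fbxo32 (atrogin-1), which is induced in wasting fibres, and in dividing cells for receptors that time the removal of cyclins, inhibitors and transcription factors.

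The libraries were made from muscle stem cells, which rest beside the fibres and rebuild them after injury, of wild-type (WT) C57BL/6 females aged 8 to 12 weeks. Cells from hindlimb muscle were sorted as negative for CD45, Sca1, CD31 and CD11b and positive for α7-integrin and CD34. Cultured cells (n = 3) were kept for 48 h on a hydrogel of 12 kPa, in medium with 20% fetal bovine serum, 40% low-glucose medium and 40% F-10, and fresh cells (n = 5) were taken right after isolation. The 3 cultured libraries shared a sequencing lane with fresh replicates 4 and 5 (run 2), whereas fresh replicates 1 to 3 were sequenced apart (run 1). The labels do not say whether replicates came from separate animals or cultures, so p-values measure the spread between these libraries, which may be technical.

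Library totals ran from 13919440 to 20068154 counts. Mitochondrial ribosomal RNA made up 26.5 and 23.2% of counts in fresh replicates 4 and 5. It made up 5.25 to 10.5% in fresh replicates 1 to 3 and 11.1 to 18.4% in cultured libraries. The summed level of 8 muscle stem cell markers was 1045 to 1170 CPM (counts scaled by library size) in cultured and 5257 to 5706 CPM in fresh libraries, with all 8 detected in both groups. The groups overlapped for Itga7, at 50.8 to 110 CPM in cultured and 51.6 to 99.4 CPM in fresh libraries, and for Cd34. Among fresh libraries Sdc4 had 2139 to 2957 CPM in run 1 and 1040 to 1170 CPM in run 2, and Chodl 501 to 641 CPM and 1211 to 1486 CPM. Summed markers of most other cell types were also lower in culture, while single genes differed, with the endothelial marker Pecam1 at 35.1, 0.103 and 38.1 CPM in cultured and 0.195 to 4.50 CPM in fresh libraries. The 8 pericyte or smooth muscle markers summed to 119 to 184 CPM in cultured and 890 to 3100 CPM in fresh libraries, with Kcnj8 and Abcc9 at 0 in culture. That sum was in culture mostly Des, at 94.5, 155 and 162 CPM, against 361 to 450 CPM in fresh libraries. The 7 fibro-adipogenic markers summed to 9.94 to 20.0 CPM in cultured and 568 to 1030 CPM in fresh libraries, with Ly6a and Pi16 at 0 in culture. Ly6a and Pi16 had at most 1.34 and 2.04 CPM in fresh libraries too. Of the fresh sum Dcn gave 159 to 588 CPM and Col3a1 329 to 594 CPM. The 5 Schwann cell markers summed to 0.0527 to 3.47 CPM in cultured and 50.4 to 811 CPM in fresh libraries, with Sox10 and S100b at 0 in culture. The 6 endothelial markers summed to 0.720 to 41.2 CPM in cultured and 78.1 to 119 CPM in fresh libraries, with Kdr and Cldn5 at 0 in culture. Kdr and Cldn5 were also low in fresh libraries, with at most 3.48 and 0.180 CPM. Tek alone gave 52.8 to 88.8 CPM of the fresh sum, and Pecam1 most of the sum in cultured replicates 1 and 3. The 7 blood markers summed to 0.255 to 5.92 CPM in cultured and 26.6 to 73.8 CPM in fresh libraries, with Csf1r, Cd79a and Lyz2 at 0 in culture. In fresh libraries Csf1r and Cd79a had at most 2.59 and 3.84 CPM, while Lyz2 had 5.70 to 62.7 CPM. The 9 myofibre markers summed to 12.7 to 79.3 CPM in cultured and 34.4 to 46.5 CPM in fresh libraries, so cultured replicate 1 was above every fresh library. Acta1 alone gave 61.0, 15.3 and 7.03 CPM of the cultured sums, against 1.24 to 6.27 CPM in fresh libraries. The part of these cells in the results on F-box genes was not tested, and in bulk RNA fewer cells of a type and less RNA per cell cannot be told apart.

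Culture was compared with the fresh state to ask how the transcriptome of these cells moves in their first days outside the muscle. In cultured cells 2 F-box genes were higher, Fbxo5, the inhibitor of the anaphase-promoting complex, and Fbxo22, a receptor for histone demethylases. A further 8 were lower, among them the leucine-rich repeat genes Fbxl7, Fbxl16, Fbxl20 and Fbxl21, a receptor of the clock proteins Cry1 and Cry2, and Fbxo11, Fbxo33 and Fbxo44. All 3 with the largest bounds or ratios, Fbxo44, Fbxl21 and Fbxl7, held 0 to 3 counts over the 3 cultured libraries together. The other 50 tested genes, with all 11 tested Fbxw genes among them, did not pass the test. Of those, 2 on chromosome 9, Fbxw25 and 1 line of Fbxw14, had no count in any library of run 2, so the comparison could not call them.

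The test was the edgeR quasi-likelihood test with Benjamini-Hochberg adjustment over 19054 genes, and a gene was called at an adjusted p under 0.05. The 10 called members were 16.7% of the 60 tested, against a background of 26.9% of all tested genes. By direction, 3.33% of members were higher, against 8.87% of all genes, and 13.3% were lower, against 18.0% of all genes. Of the tested members 17 had an unadjusted p under 0.05. The median log2 fold change was -0.27 over the tested members and -0.21 over all tested genes, with 27 members above 0 and 31 below. Over the 59 protein coding members, without the antisense Fbxl12os, it was -0.099. The 3 cultured levels were all higher or all lower than the 5 fresh levels for 18 members (30.0%), against 39.9% of all tested genes. Of these, 4 lay above, where 13.7% of all genes did, and 14 below, where 26.1% of all genes did. The count of called members was 17 of 68 tested without cultured replicate 1, where 2198 of all genes were higher and 3965 lower. It was 4 of 60 or 58 tested without fresh replicate 4 or 5. The count of lower members was 5 of 56 tested without fresh replicate 1, where 2621 of all genes were lower. Without scaling factors 3 members were higher and 4 lower, and of all genes 2452 were higher and 2857 lower, against 1691 and 3431 with TMM scaling.

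**Figure D1:**
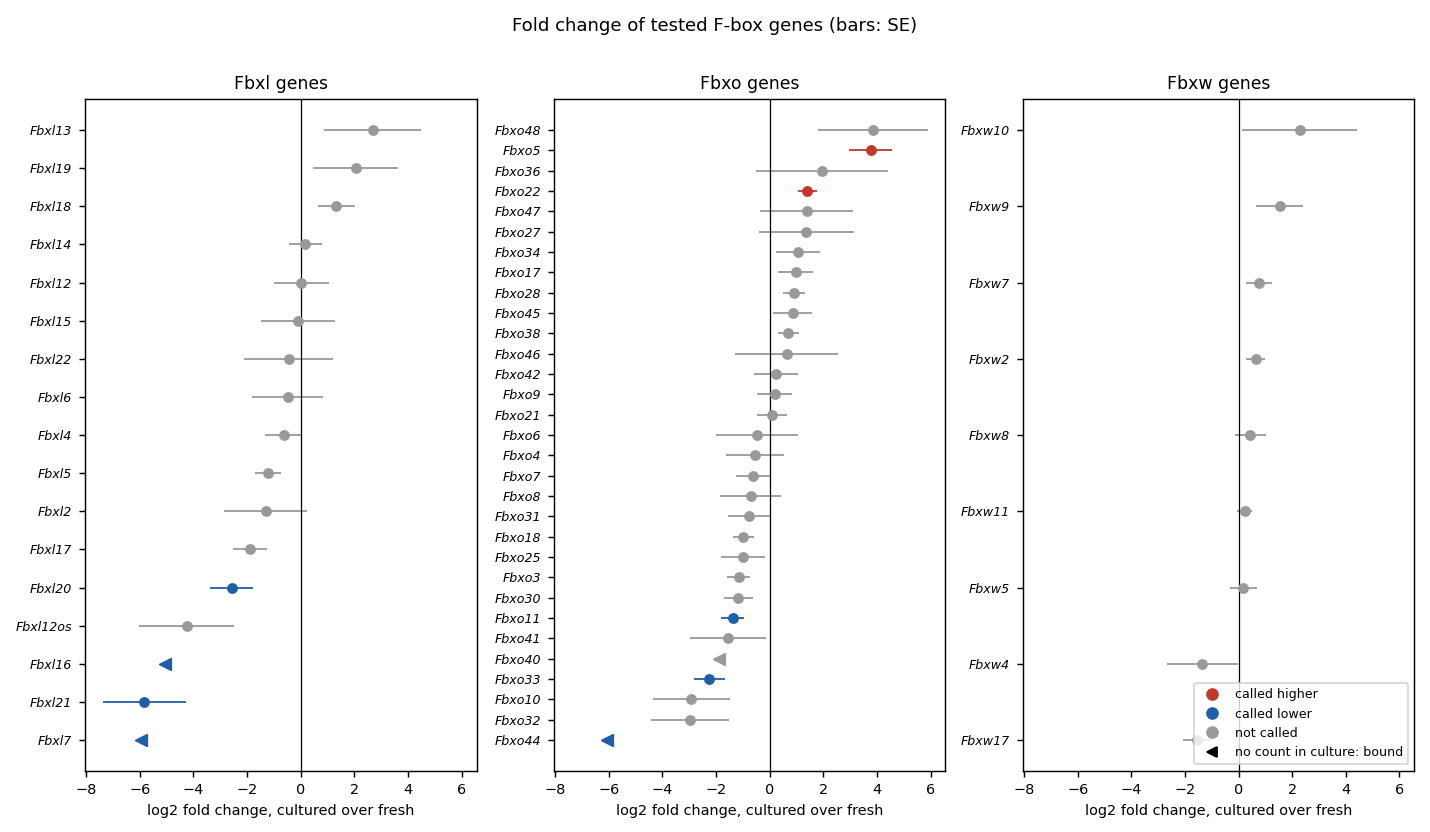
Log2 fold change of tested F-box genes with an estimate, 1 left out, cultured over fresh, with bars for the standard error (SE), in separate panels for Fbxl, Fbxo and Fbxw genes. Red points were called higher, blue points called lower and grey points not called, and triangles mark bounds for genes with no count in culture. Fbxo5 at 3.77 is the called gene farthest to the right and Fbxo44 the bound farthest to the left, and no Fbxw gene is coloured.

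Among the subfamilies, 0 of 18 tested Fbxl genes, the antisense Fbxl12os among them, were higher and 5 lower, with a median log2 fold change of -0.93. Of 31 tested Fbxo genes 2 were higher and 3 lower, with a median of -0.46. Of 11 tested Fbxw genes none was called by edgeR in either direction, with a median of 0.23, but 5 were called against fresh replicates 1 to 3 only and 3 with no run term. The 5 included Fbxw25 and 1 line of Fbxw14, which had no count in any library of run 2. All cultured libraries were of run 2. A comparison with fresh replicates 1 to 3 only thus cannot tell culture from run, and leaving out the run term mixes them in part. Both settings called Fbxw2 and Fbxw7 higher and Fbxw17 lower. Fbxw17, picked out after its values were seen, had 15.6, 6.43 and 7.24 CPM in the cultured libraries, against 35.4 and 22.5 CPM in fresh replicates 4 and 5 and 63.5, 40.9 and 36.0 CPM in fresh replicates 1 to 3. Its groups did not overlap, and the log2 fold change of -1.57 ± 0.51 (SE) had an adjusted p of 0.0515 in edgeR. That p was 0.0471 with RLE factors, 0.00893 without cultured replicate 1 and 0.00909 against fresh replicates 1 to 3 only. It was 0.00873 with no run term, 0.0301 with replicate number as a block and 0.0128 in DESeq2. It stayed over 0.05 without fresh replicate 1, 2 or 3 (0.0823, 0.0908 and 0.0787) or cultured replicate 2 or 3 (0.0948 and 0.0956). The same held without scaling factors (0.0946), with no filter (0.0927) and within run 2 alone (0.198). Without fresh replicate 4 or 5 the log2 fold change was -1.17 or -1.86. Differences between the subfamilies were not tested.

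Fbxo5, also called Emi1, lies at chr10:5799160-5805600 (mm10, minus strand, GENCODE M21). It holds back the anaphase-promoting complex so that cyclins can build up before mitosis. Its level was 61.2, 19.9 and 19.1 CPM in cultured replicates 1 to 3, against 2.34 and 2.54 CPM in fresh replicates 4 and 5 and 2.74, 2.20 and 1.56 CPM in fresh replicates 1 to 3. The groups did not overlap, and both runs of fresh cells sat at the same low level, while cultured replicate 1 stood about 3 times above the other cultured libraries. The log2 fold change was 3.77 ± 0.80 (SE), with an adjusted p of 0.00898 in edgeR. It was 3.06 without cultured replicate 1, and leaving out fresh replicate 4 or 5 gave an adjusted p of 0.0588 or 0.0566. Within run 2 alone it was 3.75, with an adjusted p of 0.0425 in edgeR.

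The promoters of the only genes called higher are printed to show what their start regions hold, from the RefSeq table for GRCm38.p6, from 250 bases before to 50 after the RefSeq start, 5′ to 3′ on the gene's strand. Capitals mark the letters of the CCAAT box (CCAAT, or ATTGG on the other strand) and of the cell cycle homology region, or CHR (TTTGAA, or TTCAAA on the other strand), both elements found in promoters of genes of late cell cycle phases.
Fbxo5, chr10:5805416-5805715, minus strand: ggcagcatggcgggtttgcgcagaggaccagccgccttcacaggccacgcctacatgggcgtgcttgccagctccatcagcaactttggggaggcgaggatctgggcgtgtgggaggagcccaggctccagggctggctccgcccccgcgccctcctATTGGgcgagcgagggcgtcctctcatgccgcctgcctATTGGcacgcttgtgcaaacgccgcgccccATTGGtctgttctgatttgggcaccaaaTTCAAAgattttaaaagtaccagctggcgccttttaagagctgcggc
Fbxo22, chr9:55208685-55208984, plus strand: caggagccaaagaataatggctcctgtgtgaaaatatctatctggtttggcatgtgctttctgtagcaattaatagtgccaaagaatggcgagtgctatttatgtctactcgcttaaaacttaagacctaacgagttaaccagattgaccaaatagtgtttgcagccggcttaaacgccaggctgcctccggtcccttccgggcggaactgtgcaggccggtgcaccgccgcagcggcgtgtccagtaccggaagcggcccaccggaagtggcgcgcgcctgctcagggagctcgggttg

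The Fbxo5 window held 3 CCAAT boxes, all as ATTGG, at 93, 55 and 25 bases before the RefSeq start, and 1 CHR as TTCAAA 3 bases after it. The GENCODE gene start lies 135 bases upstream of the RefSeq start, so by that annotation all 4 matches lie inside the gene. Of 32851 RefSeq promoters of the same length, 37.4% held a CCAAT box and 17.9% a CHR on either strand. At least 3 CCAAT boxes were held by 3.37%, and at least 3 with a CHR by 0.545%. These last 2 patterns are those of the Fbxo5 window itself, so their shares describe it and test nothing. The Fbxo22 window held none of the letters searched, which also included an E2F-type site (TTTGGCGC, TTTCGCGC, TTTCCCGC or TTTGCCGC, in 2.26% of promoters), the E-box CACGTG (7.15%) and the forkhead site GTAAACA (3.65%), each on both strands. No motif searched overlapped another in the 2 printed windows. Among 47 tested members with a promoter in the table, 12 held a CCAAT box, 6 a CHR, 3 the E-box, and 0 an E2F-type or forkhead match. These are matches of letters only.

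Fbxo22 lies at chr9:55208925-55224433 (plus strand) and is the receptor of an SCF ligase that acts on histone demethylases of the KDM4 group in human cells. Its level was 57.8, 44.8 and 44.7 CPM in the cultured libraries, against 18.7 and 18.4 CPM in fresh replicates 4 and 5 and 26.8, 31.2 and 29.9 CPM in fresh replicates 1 to 3. All cultured libraries were above all fresh ones, and the run-2 fresh libraries were the lowest of all. Fbxo22 had a log2 fold change of 1.40 ± 0.35 (SE), with an adjusted p of 0.0172 in edgeR. Leaving out fresh replicate 4 or 5 gave an adjusted p of 0.0717 or 0.0795, run 2 alone gave 0.0849, and no filter gave 0.0622. Set against fresh replicates 1 to 3 only, the log2 fold change was 0.80, with an adjusted p of 0.0619 in edgeR. Fbxo22 shares 368 exon bases with Nrg4 on the opposite strand, and no source used here says whether counting used strand, so their reads may not be separable.

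**Figure D2:**
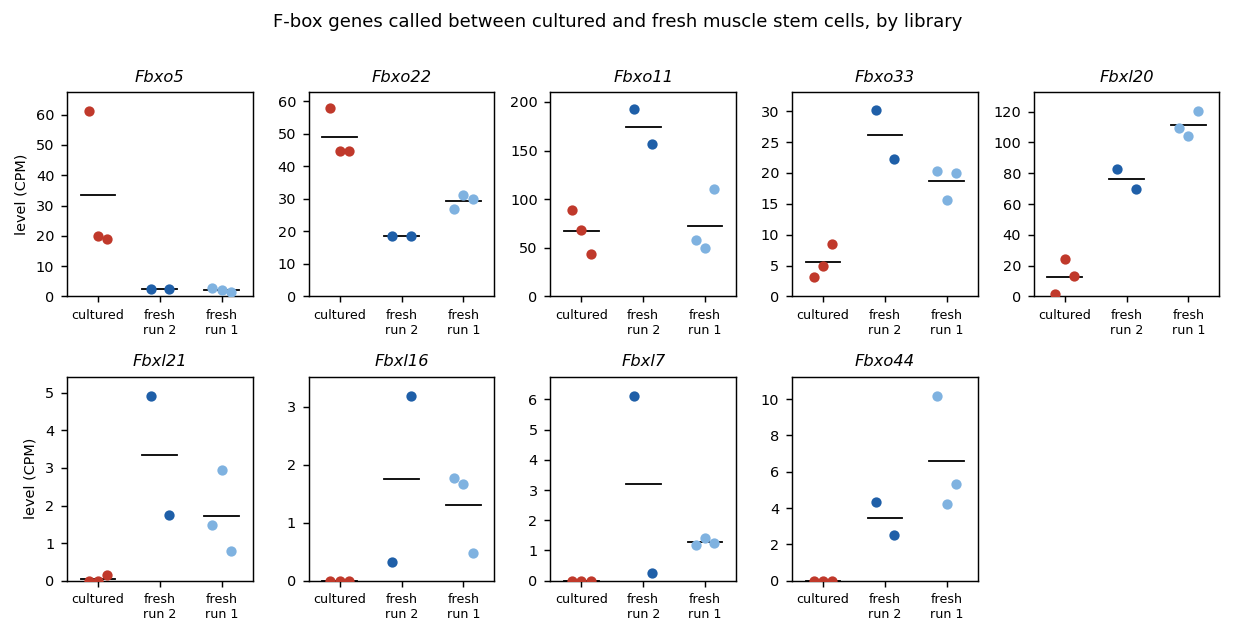
Level in CPM of 9 of the called F-box genes in each library, with cultured cells left, fresh cells of run 2 in the middle and fresh cells of run 1 right, and a line at each mean. Fbxo5 and Fbxo22 sit above every fresh library in culture, and among the 7 lower genes shown the groups overlap only for Fbxo11.

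Of the other receptors of cyclins and DNA-linked proteins, Fbxo11, a receptor of BCL6 in human B cells, was called lower. It lies at chr17:87990859-88065291 (minus strand). Its level was 88.6, 68.7 and 43.2 CPM in the cultured libraries, against 192 and 157 CPM in fresh replicates 4 and 5 and 57.5, 49.9 and 110 CPM in fresh replicates 1 to 3. The groups overlapped, with the cultured libraries below both fresh libraries of run 2 and spread around those of run 1, and cultured replicate 3 the lowest of all. The log2 fold change was -1.39 ± 0.41 (SE), with an adjusted p of 0.0366 in edgeR, and set against fresh replicates 1 to 3 only it was -0.07, with an adjusted p of 0.911. The edgeR adjusted p was 0.0469 within run 2 alone. It was 0.0527, 0.175 or 0.0876 when fresh replicate 1, 4 or 5 was left out, and 0.0567 or 0.0722 when cultured replicate 2 or 3 was, and 0.0722 with no scaling factors. With no run term the log2 fold change was -0.76, with an adjusted p of 0.218.

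Fbxw7, which takes cyclin E, Myc, Jun and Notch to the ligase, had 60.3, 32.0 and 83.3 CPM in the cultured libraries, against 44.7 and 24.8 CPM in fresh replicates 4 and 5 and 25.6, 18.3 and 21.1 CPM in fresh replicates 1 to 3. The groups overlapped through fresh replicate 4, and the log2 fold change of 0.75 ± 0.48 (SE) had an adjusted p of 0.279 in edgeR. Set against fresh replicates 1 to 3 only it was 1.49, with an adjusted p of 0.0250 in edgeR. Fbxw11, a receptor of phosphorylated IκB and β-catenin, had 86.9, 116 and 121 CPM in the cultured libraries, against 97.7 and 86.3 CPM in fresh replicates 4 and 5 and 67.0, 74.3 and 98.0 CPM in fresh replicates 1 to 3, with a log2 fold change of 0.23 ± 0.28 (SE) and an adjusted p of 0.586 in edgeR. Fbxo18, a DNA helicase with an F-box, had 15.4 to 21.3 CPM in cultured and 23.5 to 37.8 CPM in fresh libraries without overlap, with an adjusted p of 0.0978 in edgeR and of 0.0143 in DESeq2.

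The remaining genes of that group did not pass the test. Fbxw5 had 19.4 to 35.5 CPM in cultured and 13.1 to 29.0 CPM in fresh libraries, with an adjusted p of 0.845 in edgeR. Fbxo4, a receptor of cyclin D1, had 0.612 to 8.34 CPM in cultured and 2.93 to 13.4 CPM in fresh libraries, with an adjusted p of 0.767. Fbxl12 was uneven in culture, with 0.790, 20.2 and 19.3 CPM in the cultured libraries, against 11.4 to 15.6 CPM in fresh libraries. Fbxl12 shares 44.3% of its 50-base stretches with other genes, mostly with Ubl5 on the opposite strand, so its level is uncertain.

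Fbxl21 (chr13:56522472-56537898, plus strand), a receptor of the circadian repressors Cry1 and Cry2, had 0, 0 and 0.153 CPM in the cultured libraries, against 4.93 and 1.76 CPM in fresh replicates 4 and 5 and 1.48, 2.94 and 0.780 CPM in fresh replicates 1 to 3. The groups did not overlap, but levels were low throughout, with 3 counts over all cultured libraries and 105 over the run-2 fresh libraries. The mean of the run-2 fresh libraries was 65.1 times that of the cultured ones, with a 95% counting interval of 21.7 to 321, and the adjusted p was 0.0229 in edgeR. Leaving out fresh replicate 4 gave a ratio of 34.0 (10.5 to 175) and an adjusted p of 0.0688, and leaving out fresh replicate 5 a ratio of 95.3 (31.4 to 472). The adjusted p was 0.0924 within run 2 alone, and without cultured replicate 3 no count was left in culture. Intervals and bounds here cover counting error only, since reads from amplified cDNA without molecular identifiers are not independent molecules. Among the listed substrates, Cry2 had 3.79, 1.65 and 3.87 CPM in the cultured libraries, against 75.3 and 47.2 CPM in fresh replicates 4 and 5, and its log2 fold change was -4.30 ± 0.45 (SE), with an adjusted p of 0.000485 in edgeR. Cry1 had 32.9, 10.3 and 8.15 CPM in the cultured libraries, against 15.8 to 32.1 CPM in fresh ones, with overlap, a log2 fold change of -0.31 ± 0.64 (SE) and an adjusted p of 0.773 in edgeR.

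Fbxo44 (chr4:148152800-148160482, minus strand) belongs to the group with an F-box-associated domain, which in Fbxo2 and Fbxo6 binds sugar chains of glycoproteins. It had no count in the 3 cultured libraries, against 4.36 and 2.54 CPM in fresh replicates 4 and 5 and 10.2, 4.21 and 5.34 CPM in fresh replicates 1 to 3. The groups were fully apart, with 108 counts in the run-2 fresh libraries. Set against 3 counts over the cultured libraries (0.0517 CPM), it was at least 67.0-fold lower than the mean of the run-2 fresh libraries, with an adjusted p of 0.00542 in edgeR, the smallest among the members, and of 0.0425 within run 2 alone. Leaving out fresh replicate 4 or 5 moved the bound to 49.1 or 84.3. With replicate number as a block in the model the adjusted p was 0.0598 in edgeR.

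Its relatives did not pass the test. Fbxo6, next to it on chromosome 4, had 0, 6.74 and 6.73 CPM in the cultured libraries, against 3.84 to 8.53 CPM in fresh ones, with an adjusted p of 0.874 in edgeR. Fbxo17 had 15.5, 18.2 and 11.7 CPM in the cultured libraries, against 5.05 and 10.3 CPM in fresh replicates 4 and 5 and 10.5, 7.21 and 6.00 CPM in fresh replicates 1 to 3. All cultured libraries of Fbxo17 were above all fresh ones, but the log2 fold change of 0.98 ± 0.65 (SE) had an adjusted p of 0.303 in edgeR.

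Fbxl20 (chr11:98082556-98150403, minus strand) and Fbxl2 encode leucine-rich repeat receptors that can carry a lipid anchor. Fbxl20 had 1.42, 24.1 and 13.0 CPM in the cultured libraries, against 82.8 and 70.0 CPM in fresh replicates 4 and 5 and 109, 104 and 120 CPM in fresh replicates 1 to 3. Groups were well apart, while the cultured libraries spread widely among themselves. The log2 fold change was -2.57 ± 0.81 (SE), with an adjusted p of 0.0448 in edgeR, and was -1.98 without cultured replicate 1 and -3.35 without cultured replicate 2. The call was lost without fresh replicates 1, 2, 3, 4 or 5 (adjusted p 0.0736, 0.0690, 0.0715, 0.171 and 0.131 in edgeR) or cultured replicate 3 (0.0930), without scaling factors (0.0950) and within run 2 alone (0.141). Fbxl2 had 0, 8.59 and 1.63 CPM in the cultured libraries, against 3.08 to 9.41 CPM in fresh ones, with an adjusted p of 0.581 in edgeR.

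Fbxl7 and Fbxl16 were at 0 in all 3 cultured libraries. Fbxl7 (chr15:26540459-26895580, minus strand), a receptor of the mitotic kinase Aurora A in human cells, had 6.13 and 0.261 CPM in fresh replicates 4 and 5 and 1.20, 1.40 and 1.26 CPM in fresh replicates 1 to 3. It was at least 62.7-fold lower in culture (adjusted p 0.0139 in edgeR), a bound of 5.04 or 119 when fresh replicate 4 or 5 was left out. Fbxl16 (chr17:25809085-25821255, plus strand) had 0.316 and 3.19 CPM in fresh replicates 4 and 5 and 1.77, 1.67 and 0.480 CPM in fresh replicates 1 to 3. It was at least 33.5-fold lower in culture (adjusted p 0.0145 in edgeR), a bound of 61.8 or 6.11 when fresh replicate 4 or 5 was left out. For both genes 1 of the 2 fresh libraries of run 2 held most of the counts. Fbxl16 fell under the filter on low counts, and so was not tested, without fresh replicates 1, 2 or 5, and neither gene was tested within run 2 alone.

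Fbxo33 (chr12:59200655-59219725, minus strand), a receptor of the RNA- and DNA-binding protein YB-1 in human cells, had 3.11, 4.89 and 8.51 CPM in the cultured libraries, against 30.1 and 22.2 CPM in fresh replicates 4 and 5 and 20.3, 15.7 and 20.0 CPM in fresh replicates 1 to 3. Every fresh library held more than every cultured one. Fbxo33 had a log2 fold change of -2.25 ± 0.57 (SE), with an adjusted p of 0.0186 in edgeR. Leaving out fresh replicate 4 or 5 gave 0.122 or 0.0576, run 2 alone 0.107 and no scaling factors 0.0582, and set against fresh replicates 1 to 3 only the log2 fold change was -1.68, with an adjusted p of 0.0670 in edgeR.

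Fresh replicate 1 held the lowest sums of pericyte, Schwann, fibro-adipogenic and blood markers of the fresh libraries, at 890, 50.4, 568 and 26.6 CPM. Its endothelial and myofibre sums, 87.0 and 38.3 CPM, lay within the range of the other fresh libraries. The 8 genes lower in culture stood in that library at 0.718 to 2.14 times their mean in fresh replicates 2 and 3, with Fbxo11 at the low end and Fbxo44 at the high end.

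No muscle-linked receptor passed the test. Fbxo32 had 0, 0.360 and 4.74 CPM in the cultured libraries, against 13.6 and 12.9 CPM in fresh replicates 4 and 5 and 16.9, 16.7 and 27.8 CPM in fresh replicates 1 to 3. The groups did not overlap, and of the cultured libraries 1 was at 0 and replicate 3 far above the others. The log2 fold change of -2.96 ± 1.45 (SE) had an adjusted p of 0.167 in edgeR. Without cultured replicate 3 it was -6.10, with an adjusted p of 0.00966. Fbxo30 (MUSA1), induced in denervated mouse muscle, had 102, 78.1 and 28.3 CPM in the cultured libraries, against 201 and 111 CPM in fresh replicates 4 and 5 and 93.0, 81.7 and 168 CPM in fresh replicates 1 to 3, with overlap and an adjusted p of 0.141 in edgeR.

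Fbxo31 had 1.48 to 4.17 CPM in cultured and 3.29 to 8.70 CPM in fresh libraries, and Fbxo21, also induced in wasting mouse muscle, had 11.1 to 17.2 CPM in cultured and 9.64 to 16.2 CPM in fresh libraries, with adjusted p of 0.527 and 0.953 in edgeR. Fbxl22, a receptor of sarcomeric proteins in heart, was uneven, with 0.263, 11.5 and 0.0510 CPM in the cultured libraries, against 3.45 to 7.33 CPM in fresh ones, and an adjusted p of 0.891 in edgeR. Without cultured replicate 2 its log2 fold change was -5.06, with an adjusted p of 0.0148. Fbxo40, a receptor of Irs1 in muscle, was picked out after its values were seen, with no count in culture and 0 to 1.74 CPM in fresh libraries, and an adjusted p of 0.0834 in edgeR. The myofibre markers summed to 79.3 CPM at most in cultured and 46.5 CPM at most in fresh libraries, and Acta1 alone gave 61.0 CPM of that cultured maximum.

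**Figure D3:**
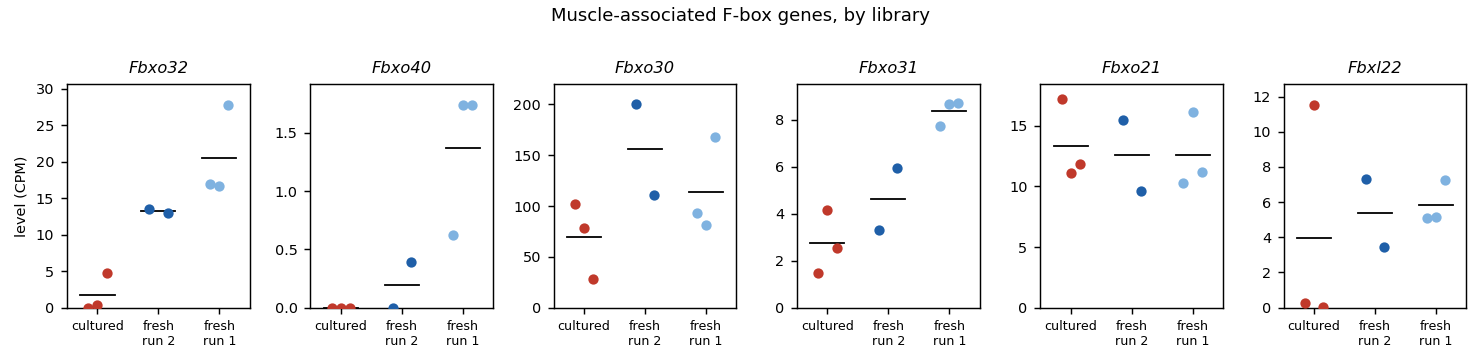
Level in CPM of 6 muscle-linked F-box genes by library, with cultured cells left, fresh cells of run 2 in the middle and fresh cells of run 1 right, and a line at each mean. For Fbxo32 the cultured libraries, 0 to 4.74 CPM, lie under the lowest fresh library at 12.9 CPM, and for Fbxl22 1 cultured library at 11.5 CPM stands above all others.

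Receptors tied to iron and mitochondria were not called. Fbxl5, the iron-sensing receptor of IRP2, had 14.2, 6.74 and 13.7 CPM in the cultured libraries, against 21.9 and 32.1 CPM in fresh replicates 4 and 5 and 28.2, 36.7 and 45.2 CPM in fresh replicates 1 to 3. These groups did not overlap, and the log2 fold change of -1.23 ± 0.47 (SE) had an adjusted p of 0.0869 in edgeR, of 0.0267 against the run-1 fresh libraries alone and of 0.0264 in DESeq2. Fbxl4, which restrains mitophagy, had 4.13 to 10.7 CPM in cultured and 6.58 to 16.6 CPM in fresh libraries, and Fbxo7, a partner of parkin, had 4.84 to 13.8 CPM in cultured and 7.82 to 25.8 CPM in fresh libraries.

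Among receptors linked to growth signalling, all 5 tested genes missed the threshold. Fbxw2 had 98.9, 78.7 and 75.6 CPM in the cultured libraries, against 62.4 and 45.8 CPM in fresh replicates 4 and 5 and 28.7, 35.5 and 53.5 CPM in fresh replicates 1 to 3. All cultured libraries were above all fresh ones, with a log2 fold change of 0.64 ± 0.35 (SE) and an adjusted p of 0.211 in edgeR, which was 0.0214 against the run-1 fresh libraries alone and 0.0419 without scaling factors. Fbxw8, the receptor that works with Cul7, had 20.7 to 61.9 CPM in cultured and 18.6 to 51.0 CPM in fresh libraries. Fbxo45, part of a ligase with Mycbp2, reached 75.5 CPM in cultured replicate 1 but 15.3 to 18.7 CPM in the other cultured libraries, against 14.9 to 28.3 CPM in fresh ones. Fbxl14 had 9.89 to 22.6 CPM in cultured and 8.47 to 19.2 CPM in fresh libraries. Fbxo25 had 4.74, 16.6 and 2.45 CPM in the cultured libraries, against 9.84 to 16.6 CPM in fresh ones, and an adjusted p of 0.403 in edgeR, which was 0.0461 without cultured replicate 2.

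Levels between genes were compared as mean CPM per kilobase (kb) of exon. In culture Fbxw11 ranked first of the 78 at 24.9, followed by Fbxo22 at 20.5, Fbxo5 at 16.7, Fbxo11 at 15.2 and Fbxo30 at 13.4 CPM per kb. In fresh cells Fbxo11 at 25.8 and Fbxo30 at 25.2 CPM per kb stood ahead of Fbxw11 at 19.6 and Fbxo22 at 10.5 CPM per kb. The fresh libraries spread from 11.4 to 43.8 CPM per kb for Fbxo11 and from 15.7 to 38.7 CPM per kb for Fbxo30, so the order of these is within their spread. Fbxo5 had rank 3 of 78 in culture and rank 40 in fresh cells, at 1.14 CPM per kb. The cultured rank rests on replicate 1, since Fbxo5 had 30.5, 9.94 and 9.54 CPM per kb in the cultured libraries, against 20.1, 15.6 and 9.82 CPM per kb for Fbxo11 in the same ones. The summed level of all members was 1092, 1129 and 1042 CPM in the cultured libraries, against 1494 and 1284 CPM in fresh replicates 4 and 5 and 1245, 1179 and 1374 CPM in fresh replicates 1 to 3.

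**Figure D4:**
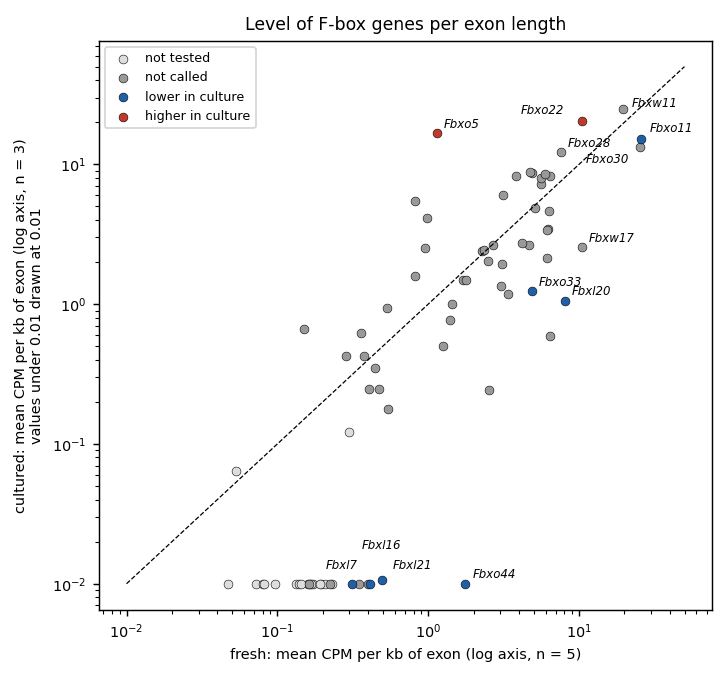
Mean level per kb of exon in cultured (y axis, n = 3) and fresh (x axis, n = 5) cells, both on log axes, with 1 point for each of 77 of the 78 F-box genes, a dashed line of equal level and values under 0.01 drawn at 0.01. Fbxo5 lies far above the line, Fbxo33 and Fbxl20 lie below it, and Fbxo44, Fbxl7 and Fbxl16 lie on the floor of the y axis.

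Detection of members differed between the groups of libraries, as did that of genes of all kinds, of which 15415 to 17852 had a count in cultured libraries, 20480 to 20898 in run-2 fresh libraries and 32710 to 34689 in run-1 fresh libraries. A count was seen for 44, 54 and 53 of 78 members in the cultured libraries, 60 and 57 in fresh replicates 4 and 5, and 78, 77 and 77 in fresh replicates 1 to 3. Of 43 tested members that reached 5 CPM in a cultured library, 6 (14.0%) were at 0 in another cultured library, against 8.88% of 11318 genes of any kind that reached it. In fresh libraries no tested member that reached 5 CPM was at 0 in another library of its run, of 42 members in run 2 and 40 in run 1, where 0.568% and 0.200% of genes of any kind were. Examples picked out after their values were seen are Fbxo36, with 35.0, 0 and 0 CPM in the cultured libraries and 0.735 to 4.76 CPM in fresh ones, and Fbxl19, with 0.0527, 32.8 and 23.4 CPM in the cultured libraries and 3.59 to 5.28 CPM in fresh ones.

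The 18 untested members had at most 1.25 CPM in any library, 15 of them had no count in culture, and 13 had none in culture or in the run-2 fresh libraries. Of the 22 Fbxw genes, 13 lie within 607 kb of chromosome 9 (chr9:109139447-109746089), where neighbouring copies share between 1.65 and 67.6% of their 50-base stretches with other genes. Together these 13 had 1, 0 and 1 counts in the cultured libraries, against 1 and 3 counts in fresh replicates 4 and 5 and 161, 73 and 134 counts in fresh replicates 1 to 3. Counts were near 0 in both groups of run 2 and higher in each library of run 1. Between the runs of fresh cells no tested member was called by edgeR, 3 had an unadjusted p under 0.05, and 0.189% of all tested genes were called.

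**Figure D5:**
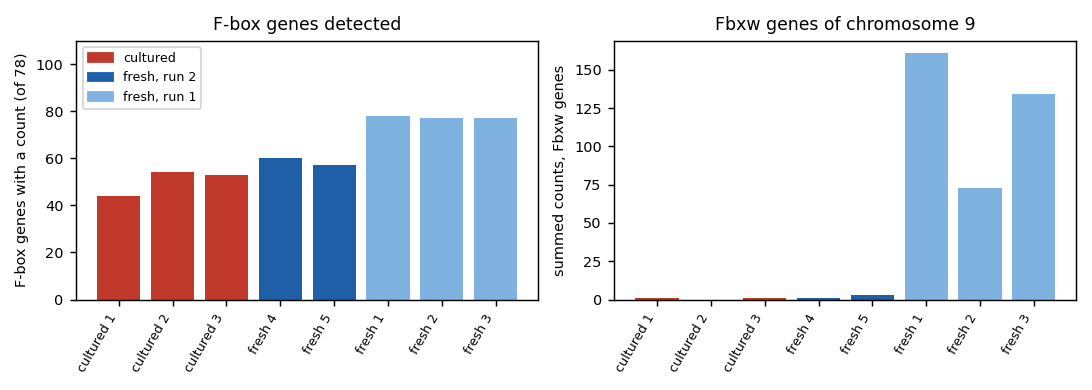
Left, the number of the 78 F-box genes with a count in each library; right, counts summed over the 13 Fbxw genes of chromosome 9, both as bars by library with cultured left and fresh right. The lowest cultured library detected 44 members, against all 78 in 1 run-1 fresh library, and the chromosome 9 genes held at most 3 counts in run 2 and 73 to 161 in run 1.

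Of the 5 genes of the common ligase core and its RING partners none was higher and 1 lower, and the median log2 fold change was 0.55. For this and the lists that follow, the background is 8.87% higher, 18.0% lower and a median of -0.21 over all tested genes. Skp1a had 114, 90.2 and 102 CPM in the cultured libraries, against 62.3 and 68.9 CPM in fresh replicates 4 and 5 and 31.8, 29.1 and 53.1 CPM in fresh replicates 1 to 3. All cultured libraries of Skp1a were above all fresh ones, with an adjusted p of 0.187 in edgeR, which was 0.00721 against the run-1 fresh libraries alone and 0.0398 without scaling factors. The comparison with run 1 alone cannot tell culture from run, and Skp1a had means of 38.0 and 65.6 CPM in fresh libraries of run 1 and run 2. Cul1 had 117 to 128 CPM in cultured and 119 to 172 CPM in fresh libraries, and Rbx1 had 29.8 to 57.8 CPM in cultured and 23.4 to 32.4 CPM in fresh libraries, with adjusted p of 0.910 and 0.362 in edgeR. Cul7, a scaffold that pairs with Fbxw8, had 5.32, 12.7 and 8.87 CPM in the cultured libraries, against 42.8 and 46.9 CPM in fresh replicates 4 and 5 and 28.1, 25.0 and 17.3 CPM in fresh replicates 1 to 3. The Cul7 groups did not overlap, and the log2 fold change of -2.32 ± 0.49 (SE) had an adjusted p of 0.00867 in edgeR, which was 0.0540 without fresh replicate 5.

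Of 14 genes tied to the cullin activator Nedd8, to the exchange of receptors or otherwise to cullin ligases, 4 were higher and none lower. Their median log2 fold change was 0.71. Ube2m, the main Nedd8-conjugating enzyme, had a log2 fold change of 3.79 ± 0.78 (SE) and an adjusted p of 0.00799 in edgeR, which was 0.0556 without fresh replicate 4. Uba3, the catalytic subunit of the Nedd8-activating enzyme, had 1.57 ± 0.47 and 0.0389, a call lost without fresh replicate 2, 4 or 5 (0.0634, 0.144 and 0.167) or cultured replicate 3 (0.0809). Dcun1d2, a Nedd8 ligase cofactor, had 1.70 ± 0.54 and 0.0467, and leaving out any library but cultured replicate 2 ended that call, with adjusted p from 0.0600 to 0.185. Of the 9 COP9 signalosome genes, whose complex removes Nedd8 from cullins, 2 were higher and none lower, with a median of 1.23. Cops5, the catalytic subunit, had a log2 fold change of 2.04 ± 0.41 (SE) and an adjusted p of 0.00748 in edgeR, which was 0.0558 without fresh replicate 5. Cops3 had 1.81 ± 0.56 and 0.0428, a call lost without any 1 fresh library (0.0669 to 0.221), and 1.10 without cultured replicate 1.

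Of 8 ubiquitin-conjugating partners 2 were higher and none lower, with a median log2 fold change of 0.11. Cdc34, the enzyme that extends ubiquitin chains on SCF substrates, had a log2 fold change of 2.51 ± 0.56 (SE) and an adjusted p of 0.0116 in edgeR, while leaving out fresh replicate 4 gave an adjusted p of 0.0712 and leaving out fresh replicate 5 a log2 fold change of 3.11. Cks1b, the cofactor with which Skp2 binds p27, had 2.35 ± 0.71 and 0.0401. Its call was lost without fresh replicates 1, 2, 3 or 5 (0.0665, 0.0674, 0.0661 and 0.184) or cultured replicates 2 or 3 (0.0748 and 0.0739), and the log2 fold change became 3.69 or 1.70 on leaving out fresh replicate 4 or 5.

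Of 7 tested F-box genes with other names 1 was higher and 1 lower. Ccnf (cyclin F) had 52.0, 18.5 and 12.3 CPM in the cultured libraries, against 0.758 and 1.24 CPM in fresh replicates 4 and 5 and 1.37, 1.00 and 1.62 CPM in fresh replicates 1 to 3. Its groups were far apart, with a log2 fold change of 4.78 ± 0.94 (SE), which was 4.00 without cultured replicate 1, and an adjusted p of 0.00684 in edgeR. Btrc, the close relative of Fbxw11, had 1.84, 2.42 and 9.22 CPM in the cultured libraries, against 26.8 and 16.4 CPM in fresh replicates 4 and 5 and 28.5, 25.0 and 20.2 CPM in fresh replicates 1 to 3. Btrc just passed, at -2.26 ± 0.73 (SE) and an adjusted p of 0.0499 in edgeR, and every library left out except cultured replicate 3 ended the call (0.0601 to 0.251), while without cultured replicate 3 the log2 fold change was -3.32. Skp2, the receptor of p27, had 15.9, 55.3 and 43.2 CPM in the cultured libraries, against 17.4 to 74.8 CPM in fresh ones, with an adjusted p of 0.625 in edgeR.

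Of 22 genes listed as substrates of F-box ligases 6 were higher and 7 lower, with a median log2 fold change of -0.26, against 26.9% called and a median of -0.21 over all tested genes. Jun, a substrate of Fbxw7, fell by 4.24 ± 0.39 (SE) on the log2 scale (adjusted p 0.000271 in edgeR), and Ccnd1 (cyclin D1) was higher by 3.87 ± 0.50 (adjusted p 0.00126). Of 8 tested atrophy genes outside the family 1 was higher and 2 lower. Foxo1, the transcription factor that drives Fbxo32 in muscle, had a log2 fold change of -2.94 ± 0.75 (SE) and an adjusted p of 0.0202 in edgeR, which became 0.0916 or 0.0715 on leaving out fresh replicate 4 or 5 and 0.0592 on leaving out cultured replicate 3. Leaving out cultured replicate 2 gave a log2 fold change of -4.00. Psmd11, a proteasome subunit, was higher by 1.36 ± 0.33 (adjusted p 0.0157, and 0.0775 or 0.106 without fresh replicate 4 or 5). Map1lc3b, an autophagy protein, fell by 1.28 ± 0.28 (adjusted p 0.0106, and 0.0958 without fresh replicate 5).

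Among the pathway genes named, run 2 alone ended the calls of Uba3, Dcun1d2, Cops3, Cks1b, Btrc, Foxo1, Psmd11 and Map1lc3b, with adjusted p from 0.0507 to 0.190 in edgeR. Set against fresh replicates 1 to 3 only, Cul7 had a log2 fold change of -1.31 (adjusted p 0.0991) and Ube2m of 1.62 (adjusted p 0.0625). In that comparison the log2 fold change was 2.74 for Ccnd1, 3.78 for Cdc34, 2.59 for Dcun1d2, -5.21 for Cry2 and -3.59 for Jun, all still called. With no run term it was 3.05 for Ccnd1, 3.12 for Cdc34, 2.12 for Ube2m and -4.95 for Cry2. The calls of Btrc and Map1lc3b were lost without scaling factors (0.122 and 0.0703), that of Dcun1d2 with RLE factors (0.0531), and those of Btrc, Dcun1d2 and Uba3 with no filter (0.0740, 0.0759 and 0.0505).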

How the data were processed

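RNA was isolated with a Qiagen micro kit and amplified as cDNA with NuGEN Ovation v2, per the labels' protocols. Reads were processed with STAR and RSEM on mm10, per the submitters' processing notes, and no source used here gives their versions or the annotation. Values deposited by the authors are RSEM expected counts for each gene, without normalization. Expected counts were rounded to whole numbers, and 92 lines of spike-in sequences were left out.

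Tests used R 4.3.3 and edgeR 4.0.16, with filterByExpr by group, TMM scaling, run and culture as terms, the quasi-likelihood test and Benjamini-Hochberg adjustment over 19054 genes. Since run 1 held fresh libraries only, the coefficient for culture sets cultured against fresh libraries of run 2, and those of run 1 serve to estimate the spread. Levels are in CPM after TMM scaling. Standard errors were derived from the fold change and its test statistic and are approximate. A gene at 0 in culture is given as a bound against 3 counts over the cultured libraries. Coordinates, exon overlap and exon length came from GENCODE M21, which matched all 78 members. Library pairs of 1 group differed by more than sampling noise, so none was merged.

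Members called with a group mean of at least 10 CPM and members of fixed role groups with at least 5 CPM were described by library, together with 6 fixed pathway genes and, in each pathway list, the most changed called ones, 3 at most, with a mean of 10 CPM or more. Members, role groups and lists were chosen with earlier results of these data known. The scripts were tested on simulated data with 200 changed genes. Alternatives were other terms, libraries, scaling, filter and DESeq2 1.42.0. The values of 1 called member are not reported here.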

Additional observations from a re-analysis of the deposited data

Results flagged for a closer look

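In 3 of 32 F-box genes screened, 1 of the 5 fresh libraries stood apart from the others by Dixon's test at a critical ratio of 0.71, which chance passes in about 1 group in 20. Fbxl7 had 6.13 CPM in fresh replicate 4, with a gap to its nearest neighbour of 0.805 of the range, against 0.261 to 1.40 CPM in the other fresh libraries. Fbxw7 had 44.7 CPM in fresh replicate 4, with a gap of 0.724 of the range, against 18.3 to 25.6 CPM in the other fresh libraries. Fbxo32 had 27.8 CPM in fresh replicate 3, with a gap of 0.729 of the range, against 12.9 to 16.9 CPM in the other fresh libraries.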

How the results depend on the processing

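Counts of higher and lower members, 2 and 8 as reported, depended on the fresh libraries of run 2 and on the terms of the model. Leaving out 1 library gave 0 to 5 higher and 4 to 12 lower members and 3337 to 6163 called genes of any kind, against 5122 with all libraries. Without a fresh library of run 2 the culture coefficient rests on 1 fresh library, which is assumed to vary like the others. With no run term 4 members were higher and 11 lower, and with no filter 1 was higher. Against fresh replicates 1 to 3 only 3 were higher and 10 lower, and 5 of these 13 were among the 10 called with all libraries. Culture and run cannot be told apart in that comparison. Run 2 alone gave 1 higher and 2 lower members and 2780 called genes. Without scaling factors 4 were lower, and the median of all genes shifted by 0.41 on the log2 scale. DESeq2 called 13 lower. With replicate number as a block, 1 member was higher, 2 were lower, 2482 genes of any kind were called and the median of all genes shifted by -0.49. Of these 3 members, 2 were among the 10 called as reported, and the other was Fbxw17. Same-numbered libraries deviated together with correlations of 0.0296, 0.0103 and 0.0108 only, against -0.0179 to 0.00958 for differently numbered ones. These values compare fresh libraries of run 1 with cultured libraries of run 2, so they cannot tell whether the numbers pair the libraries. All 10 called members kept their direction under each alternative in which they were tested. Of the genes named, those that changed the sign of their log2 fold change were not called. With no run term it was -0.0196 for Fbxl12, -0.0791 for Fbxl14 and 0.0615 for Skp2. With the replicate block it was -0.68 for Fbxl12, -0.33 for Fbxl14 and 0.43 for Skp2. Against fresh replicates 1 to 3 only it was -0.15 for Fbxl14 and 0.63 for Skp2. With RLE factors it was -0.0474 for Fbxl12. In DESeq2 it was -0.0474 for Fbxl12. Without scaling factors it was 0.0359 for Fbxl22, 0.0577 for Fbxo6, 0.36 for Cul1 and 0.0337 for Skp2. Leaving out 1 library gave log2 fold changes from -0.33 to 0.64 for Fbxl12, from -0.31 to 0.81 for Fbxl14, from -5.06 to 0.26 for Fbxl22, from -1.15 to 0.22 for Fbxl4, from -0.20 to 0.51 for Fbxo21, from -1.26 to 0.97 for Fbxo4, from -0.18 to 1.20 for Fbxo45, from -0.89 to 0.29 for Fbxo6, from -1.19 to 0.15 for Fbxo7, from -0.17 to 0.73 for Fbxw5, from -0.084 to 1.41 for Fbxw8, from -0.11 to 0.0601 for Cul1 and from -0.94 to 0.44 for Skp2. The cause was not tested. Depth limits Fbxl7, Fbxl16 and Fbxl21, which held 54 to 105 counts over both run-2 fresh libraries.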
